A study of Homo sapiens with 4 samples.

Results

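Cytokine receptor chains and Janus kinases were followed in 17 probe sets of 10 genes, out of 22277 probe sets for 11963 singly named genes. The members were chosen by name: every probe set whose platform annotation gave 1 of the 10 symbols and no other was taken, and 0 further probe sets named a member among several genes. The 6 receptor genes IL7R, IL2RG, IL2RB, IL4R, IL6ST and IL3RA had 10 probe sets, and the 4 kinase genes JAK1, JAK2, JAK3 and TYK2 had 7. RNA came from the established human lines BV-173 and SUP-B15, B lineage leukemias that carry the Philadelphia chromosome and its fusion kinase BCR-ABL1. Each line was cultured without drug or with STI571 (imatinib), which blocks that kinase, at 10 μmol/l for 16 h, and both lines carry the fusion in both conditions. The 4 groups held 1 array each, with no replicates, so values within a line have no error of their own and the number of arrays limits every statement below.

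Cytokine receptors of this family have no kinase activity. Their signalling chains bind Janus kinases inside the cell, and the ligand brings chains together. The kinases then phosphorylate the receptor and STAT transcription factors such as STAT5. The receptor for interleukin 7, made of the IL7R chain and the shared gamma chain IL2RG, works through JAK1 and JAK3 and supports the growth of early B cells. BCR-ABL1 activates STAT5 without a cytokine, which is the background to measuring this pathway with and without STI571.

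The median signal of the arrays lay between 95.5 and 115, and GAPDH control probe sets had 3'/5' signal ratios between 1.12 and 1.20, those of ACTB between 2.08 and 2.40. Controls for 18S ribosomal RNA averaged 2817 on the treated BV-173 array and between 1513 and 1597 on the others; its part in the results below was not tested. The labelled B lineage was checked with 11 measured markers of B precursors, whose summed signal was 26729 without and 62415 with drug in BV-173. The SUP-B15 sums were 101094 and 133487. Bright genes weigh most in such sums, such as CD24 with 3128 and 16202 in BV-173. With drug, CD79A was lower in BV-173 (897 and 502), and CD79A (1633 and 1582.5) and CD22 (712 and 379) were lower in SUP-B15, while the other markers were higher. MME was dim in BV-173, at 7.2 and 18.3. Most markers of other blood cells were dim: summed signals were 370.5 to 684 for 10 T cell genes, 350.6 to 1276 for 8 NK cell genes, 196 to 366 for 10 myeloid genes and 156 to 286 for 6 erythroid and megakaryocyte genes. On each array at least 8 of the 10 T cell genes, 5 of the 8 NK cell genes, 9 of the 10 myeloid genes and 4 of the 6 erythroid genes lay below the array's median. The exceptions included NKG7, at 147 to 392, and KLRF1, at 356 and 682 on the BV-173 arrays. LCK and MPO passed as higher in SUP-B15, where LCK gave 361 and 284 and MPO 196 and 162, and KLRF1 passed as lower. LCK and MPO reached the array median only in SUP-B15 and KLRF1 only in BV-173, so each entered the test through the group where it was high. The part of these markers in the line differences below was not tested.

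Of the member genes, only IL7R passed the test for a mean response to STI571 over both lines, upward, and IL7R, JAK1 and IL6ST passed the test for a difference between the lines, each with more signal in SUP-B15. JAK1, with a positive change in both lines, missed the adjusted threshold for STI571, as did every other tested member. Changes are differences of log2(signal + 24.5), a scale that understates changes of dim probe sets. A probe set was tested if its signal reached the array's median (50th percentile) on at least 1 array, which 13 of the 17 did, at least 1 for every member gene. Both tests came from 1 limma fit to the 4 arrays, whose terms were the line and the drug, with adjustment over 13408 probe sets. That fit has 1 residual degree of freedom and takes each error from probe sets of like brightness, so an error below is not the probe set's own spread. On simulated data 16.7% of this fit's calls for STI571 were false, more than its threshold of 0.05 allows. In that setting the adjusted p-values were too small, and the call of IL7R for STI571, whose adjusted p-value by limma lay near 0.05, is not secure. The share holds for the simulated mix of changes and need not be that of these data. The fit called 40.5% of simulated 2-fold changes, so a member that did not pass may still have responded.

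The upstream sequences of the 3 genes that passed a test are shown because their RNA differed between the lines. They are the 250 bases before the annotated start, from RefSeq on GRCh38.p14, written along the strand of the gene. Capitals mark matches, on either strand, to the motifs searched: the FOXO cores GTAAACA and ATAAACA, the STAT site TTCNNNGAA, the ETS site CCGGAAGT and the E-box CAGCTG. The window of IL7R lies at chr5:35856641-35856890 on the plus strand, that of JAK1 at chr1:65067747-65067996 on the minus strand, which is the outermost of 3 annotated starts and the only 1 of the 3 windows with a match, and that of IL6ST at chr5:55994964-55995213 on the minus strand.
IL7R: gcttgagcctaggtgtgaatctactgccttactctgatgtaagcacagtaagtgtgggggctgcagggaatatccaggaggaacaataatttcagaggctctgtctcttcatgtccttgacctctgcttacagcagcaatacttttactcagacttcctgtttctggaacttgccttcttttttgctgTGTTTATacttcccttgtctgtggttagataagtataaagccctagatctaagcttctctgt
JAK1: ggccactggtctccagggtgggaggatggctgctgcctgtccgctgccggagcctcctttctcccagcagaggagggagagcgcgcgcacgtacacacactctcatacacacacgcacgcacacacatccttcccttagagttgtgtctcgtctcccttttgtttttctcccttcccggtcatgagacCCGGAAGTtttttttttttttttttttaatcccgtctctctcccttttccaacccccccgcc
IL6ST: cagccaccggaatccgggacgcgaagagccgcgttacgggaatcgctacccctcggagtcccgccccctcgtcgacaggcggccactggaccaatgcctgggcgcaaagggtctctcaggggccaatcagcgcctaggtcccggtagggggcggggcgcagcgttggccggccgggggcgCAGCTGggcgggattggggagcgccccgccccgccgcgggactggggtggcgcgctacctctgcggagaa
IL7R held ATAAACA, read on the other strand as TGTTTAT, 62 to 56 bases upstream of the start. JAK1 held CCGGAAGT 62 to 55 bases upstream, and IL6ST held CAGCTG 70 to 65 bases upstream. No 2 of these matches overlap. Of 35093 windows of the same length over all genes, 2.98% held GTAAACA, 3.77% ATAAACA, 6.57% TTCNNNGAA, 3.43% CCGGAAGT and 14% CAGCTG. Windows were found for 9 of the 10 members; of the other members, IL2RG held GTAAACA, IL3RA held TTCNNNGAA at 2 places and CAGCTG, and JAK2 and TYK2 held CAGCTG. A match describes letters and shows no binding.

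IL7R (probe set 205798_at), the chain that recognises interleukin 7 and thymic stromal lymphopoietin, gave a signal of 1406 in BV-173 without and 2527 with drug, while the SUP-B15 arrays gave 4130 without and 6299 with drug. The treated array was above the untreated one in each line, and both SUP-B15 arrays were above both BV-173 arrays. Signal on the treated array was 1.78-fold higher in BV-173 and 1.52-fold higher in SUP-B15, and IL7R rose on average by 0.72 on the log2 scale (SE 0.20, 95% interval 0.32 to 1.12, adjusted p = 0.0207 by limma). Over all kept probe sets 2.75% passed this test, 1.34% upward and 1.42% downward. At an unadjusted p under 0.05 by limma, 1539 of 13408 did, in either direction. Of the 13 member probe sets tested, 1 passed upward and 0 downward (limma; at an unadjusted p under 0.05, 2 upward and 0 downward). The call for IL7R ended with arrays set to a common median (adjusted p = 0.153), with each gene as its probe set mean (0.0589), with no intensity trend (0.648) and with no cell line term (1.0); over all alternatives limma's adjusted p ranged from 0.00829 to 1.0. Summed B precursor markers, though not each single marker, were also higher on the treated array of each line, as given above. Of the 11 markers 6 passed upward and 0 downward for STI571 (limma), against 1.41% and 1.63% of all genes. Their median change was 1.04. The part of these markers in the IL7R result was not tested.

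IL7R was 2.90-fold higher in SUP-B15 than in BV-173 on the untreated arrays and 2.48-fold higher on the treated arrays. The mean log2 difference was 1.42 (SE 0.20, 95% interval 1.03 to 1.82, limma adjusted p = 7.56e-11). This call ended without the intensity trend (limma adjusted p = 0.0526, the highest of the alternatives, whose lowest was 7.807e-12). Of the 11 B precursor markers 10 passed with more signal in SUP-B15 and 1, CD22, with less (limma), against 14.4% and 14.2% of all genes. Among the 10, MME reached the median only on the SUP-B15 arrays. The part of these markers in the line differences of IL7R and JAK1 was not tested. CRLF2, which pairs with IL7R to bind thymic stromal lymphopoietin, had signals of 14.9 and 5.1 on the BV-173 arrays and 7.0 and 3.1 on the SUP-B15 arrays, below the array median on every array; it was singled out as a partner chain after its values were seen.

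**Figure D1:**
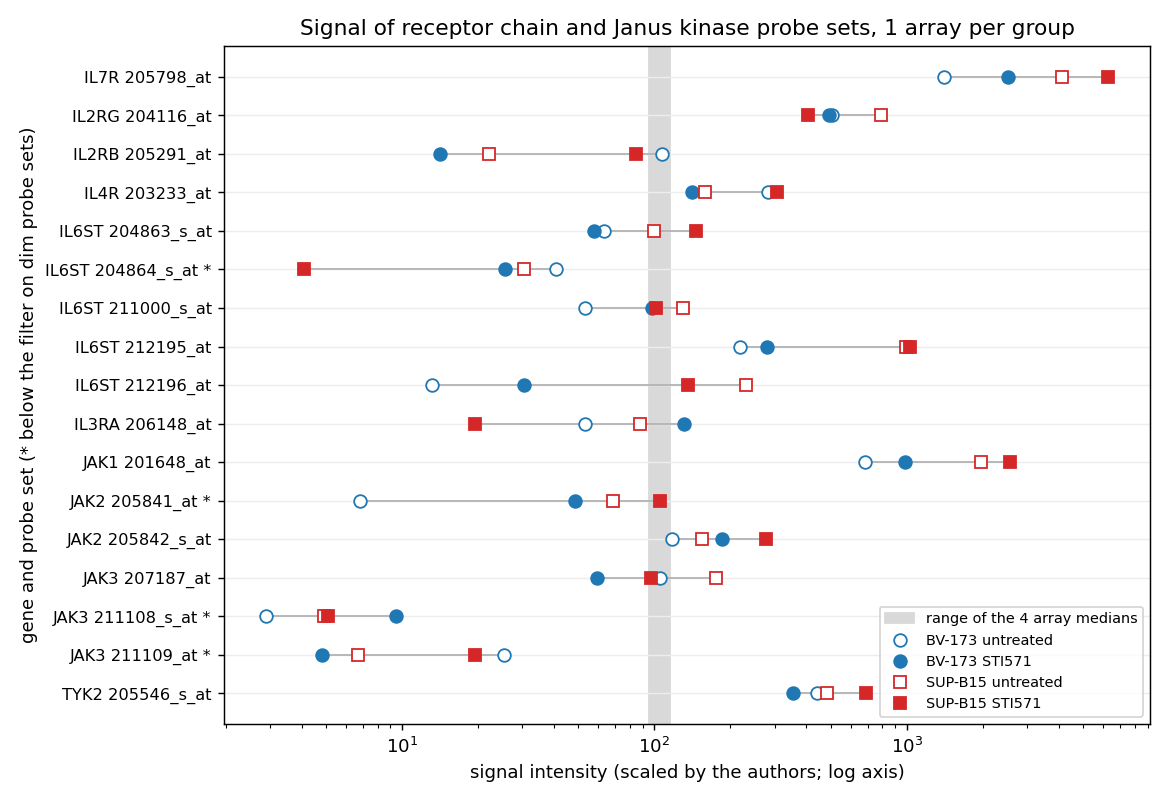
Signal intensity of the 17 member probe sets on a log axis, 1 row per probe set, with open symbols for untreated and filled symbols for STI571 arrays of BV-173 (circles) and SUP-B15 (squares); the grey band spans the 4 array medians, 95.5 to 115, and stars mark the 4 probe sets below the filter. IL7R and JAK1 show the 4 arrays in the same order, from untreated BV-173 to treated SUP-B15, while the arrays of IL2RB and IL4R are ordered differently in each line.

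IL2RG encodes the gamma chain shared by the receptors for interleukins 2, 4, 7, 9, 15 and 21. Its probe set 204116_at gave 505 without and 493 with drug in BV-173, whereas SUP-B15 gave 788 without and 408 with drug. The SUP-B15 arrays thus enclosed both BV-173 arrays, and the log2 change by STI571 was −0.03 for BV-173 but −0.91 for SUP-B15. The mean change of −0.47 did not pass (SE 0.26, 95% interval −0.98 to 0.04, limma adjusted p = 0.504), nor did the difference between the lines (log2 0.18, 95% interval −0.33 to 0.69, limma adjusted p = 0.67).

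IL4R, the chain that binds interleukin 4, and IL2RB, the beta chain of the receptors for interleukins 2 and 15, both had responses of opposite sign in the lines. IL4R (203233_at) gave 281 without and 141 with drug in BV-173, whereas SUP-B15 gave 158 and 306, log2 changes of −0.88 and 0.86, with all 4 signals above their array's median. In the untreated state IL4R was therefore higher in BV-173, and after STI571 higher in SUP-B15. IL2RB (205291_at) gave 107.5 without and 14.2 with drug in BV-173, whereas SUP-B15 gave 22.1 and 84.8, log2 changes of −1.77 and 1.23. Of these signals 1 reached its array's median and 2 lay below the 25th percentile, and the change in BV-173 was −2.84 if the pseudocount was 1 and −0.87 if it was 98. Mean changes were −0.01 for IL4R (SE 0.37) and −0.27 for IL2RB (SE 0.94), with limma adjusted p of 0.997 and 0.968. The test is of the mean over both lines, so it says nothing of responses that oppose each other, and with 1 array a group the difference between the responses has no test.

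IL3RA, which binds interleukin 3 and signals with the beta chain CSF2RB, was the third member with opposed responses of at least 1.5-fold in each line. Its probe set 206148_at gave 53.1 without and 131.5 with drug in BV-173, whereas SUP-B15 gave 87.7 and 19.5. The treated BV-173 array was the only one at or above its median, and treated SUP-B15 lay below the 25th percentile. BV-173 had a log2 change of 1.01 and SUP-B15 one of −1.35, the latter −2.11 if the pseudocount was 1 and −0.66 if it was 98. CSF2RB gave 757 without and 467 with drug in BV-173, against 101.5 and 144 in SUP-B15, and was lower in SUP-B15 (mean log2 difference −2.09, SE 0.32, limma adjusted p = 2.63e-09), whereas the line difference of IL3RA was −0.65 (SE 0.77, limma adjusted p = 0.596). Responses of opposite sign and at least 1.5-fold in each line were seen in 3 of the 13 tested member probe sets. Over all kept probe sets the share was 4.3%. IL2RB and IL3RA each reached the median on 1 array only, so the filter kept each through an array where it was high. No test was made of the count.

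IL6ST encodes gp130, the signalling chain shared by receptors for interleukin 6, interleukin 11 and related cytokines, and had 5 probe sets that disagreed. On 212195_at the BV-173 signals were 218 without and 279 with drug, and those of SUP-B15 989 and 1028. On 212196_at it was 13.1 and 30.4 in BV-173, and 231 and 135 in SUP-B15. Both SUP-B15 arrays were above both BV-173 arrays on each of these probe sets. On 212195_at IL6ST was 4.18-fold higher in untreated and 3.47-fold higher in treated SUP-B15 (mean log2 difference 1.93, SE 0.26, 95% interval 1.41 to 2.45, limma adjusted p = 7.26e-12). Probe set 212196_at was at or above the median only on the SUP-B15 arrays, so it entered the test through the group where it was high, and its call does not add support to that of 212195_at. On 212196_at the folds were 6.79 and 2.91 (mean log2 difference 2.15, SE 0.72, limma adjusted p = 0.0135); untreated, its log2 difference of 2.76 was 4.04 if the pseudocount was 1 and 1.56 if it was 98.

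The names of the other IL6ST probe sets hold the letter s, given where probes match several transcripts, and their signals were 147 or lower. On 204863_s_at BV-173 gave 63.2 and 57.6, SUP-B15 99.3 and 147. On 211000_s_at BV-173 gave 53.1 and 97.8, SUP-B15 130 and 102. Their line differences of 0.78 (SE 0.63) and 0.52 (SE 0.60) did not pass (limma adjusted p = 0.397 and 0.582). The untested 204864_s_at ran the other way, with 40.8 and 25.5 in BV-173 and 30.4 and 4.1 in SUP-B15. With the mean of its 4 kept probe sets, IL6ST differed between the lines by a log2 of 1.35 (limma adjusted p = 0.0205). All of these but 212195_at reached the median only on SUP-B15 arrays and so entered through the group where they were high. The mean leaves out 204864_s_at and adds no support to the call of 212195_at. None of its kept probe sets passed for STI571, with mean changes of −0.06 to 0.19 and limma adjusted p of 0.898 to 0.994. The chain that binds interleukin 6 itself, IL6R, singled out as a partner after its values were seen, had 5.7 and 51.8 in BV-173 and 8.2 and 10.4 in SUP-B15, below the median on all 4 arrays.

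JAK1, the kinase bound to IL7R, IL4R, IL2RB and IL6ST, gave 685 without and 982 with drug in BV-173 on 201648_at, while the SUP-B15 arrays gave 1962 and 2573. As for IL7R, the treated array was above the untreated one in each line and both SUP-B15 arrays were above both BV-173 arrays. JAK1 was higher in SUP-B15, 2.80-fold untreated and 2.58-fold treated (mean log2 difference 1.43, SE 0.22, 95% interval 1.0 to 1.85, limma adjusted p = 1.07e-09). Without the intensity trend limma's adjusted p was 0.0508, the highest of the alternatives, whose lowest was 2.456e-10. STI571 gave log2 changes of 0.50 (BV-173) and 0.39 (SUP-B15), a mean of 0.45 with a 95% interval of 0.02 to 0.87, which did not pass the adjustment (unadjusted p = 0.0391, limma adjusted p = 0.381).

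JAK2, the kinase of the receptors for interleukin 3 and erythropoietin, had 2 probe sets with treated above untreated in each line. On 205842_s_at the signals were 117 and 185 in BV-173 and 155 and 276 in SUP-B15, log2 changes of 0.56 and 0.75. The mean of 0.65 did not pass (SE 0.40, 95% interval −0.14 to 1.45, limma adjusted p = 0.605), and the line difference was 0.43 (SE 0.40, limma adjusted p = 0.478). On 205841_at, below the array medians throughout and so untested, the signals were 6.8 and 48.5 in BV-173 and 68.4 and 105 in SUP-B15. Its log2 change in BV-173 was 1.22, but 2.67 if the pseudocount was 1 and 0.48 if it was 98.

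JAK3, the kinase that binds the gamma chain, had 1 tested probe set of 3. On 207187_at the signals were 105.6 and 59.0 in BV-173 and 176 and 96.8 in SUP-B15, so the treated array was below the untreated one in each line, by log2 changes of −0.64 and −0.73. The mean of −0.68 did not pass (SE 0.56, 95% interval −1.78 to 0.42, limma adjusted p = 0.765). The remaining probe sets, 211108_s_at and 211109_at, gave signals of 2.9 to 9.5 and of 4.8 to 25.4, below the 25th percentile on 4 and on 3 of the 4 arrays. TYK2, a kinase of the interferon, interleukin 10 and interleukin 12 receptors, gave 442 and 354 in BV-173 and 485 and 691 in SUP-B15 (205546_s_at). Its changes of −0.30 and 0.49 had opposite signs, and its line difference of 0.52 did not pass (SE 0.27, unadjusted p = 0.0499, limma adjusted p = 0.141). In the untreated state the TYK2 difference of 0.13 turned to −0.13 with arrays set to a common median.

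**Figure D2:**
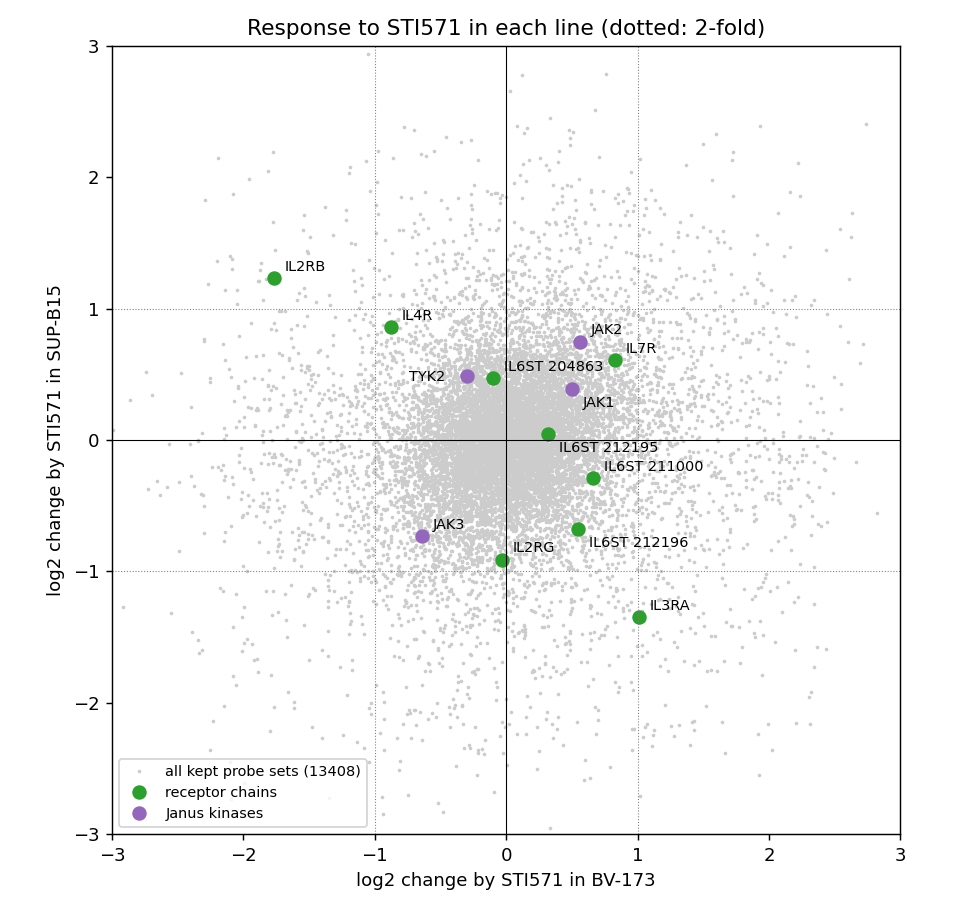
Log2 change by STI571 in BV-173 (horizontal) against SUP-B15 (vertical) for the 9 tested receptor probe sets (green), the 4 tested kinase probe sets (purple) and all 13408 kept probe sets (grey, 15 of them outside the axes); dotted lines mark 2-fold. IL7R, JAK1 and JAK2 lie above 0 in both lines, JAK3 below 0 in both, and IL2RB, IL4R and IL3RA lie in the quadrants of opposite sign.

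Set side by side, 4 of the 13 tested probe sets had a positive change in both lines (IL7R, JAK1, JAK2 and 212195_at of IL6ST). A negative change in both was seen in 2 (IL2RG and JAK3), and 7 had opposite signs. Among all kept probe sets 29% were positive in both and 26.2% negative in both. The remainder had opposite signs or no change in a line. A change of 2-fold or more was reached by 2 of 13 in BV-173, IL2RB and IL3RA, and by the same pair in SUP-B15. Over all kept probe sets the shares were 12.1% and 9.87%. IL2RB reached the median only on the untreated BV-173 array and IL3RA only on the treated one. Each was thus kept through 1 array where it was high, and these counts support nothing further. In BV-173 IL3RA was the 1 higher and IL2RB the 1 lower, where 6.99% and 5.1% of all kept probe sets were 2-fold higher and lower. In SUP-B15 IL2RB was the 1 higher and IL3RA the 1 lower, against 4.49% and 5.38%. At 1.5-fold in both lines, 1 was higher (IL7R) and 1 lower (JAK3), against 3.42% and 3.21% of all kept probe sets. The 13 had a median log2 change of 0.32 (BV-173) and 0.39 (SUP-B15), where all kept probe sets had 0.04 and 0.00. The median of their mean changes over both lines was 0.09, against 0.02 over all kept probe sets.

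Between the lines, 4 of the 13 passed with more signal in SUP-B15, those of IL7R and JAK1 and 2 of IL6ST, of which all but 212196_at were above the median on all 4 arrays, and 0 with less (limma; at an unadjusted p under 0.05, 5 and 0). Over all kept probe sets 25.9% passed this test, 13.5% with more signal in SUP-B15 and 12.5% with less. At an unadjusted p under 0.05 by limma, 4756 of 13408 did, in either direction. The share of all calls that were higher in SUP-B15 was 51.9%, and 41.7% with arrays set to a common median. That scaling moved the median line difference of all kept probe sets from −0.02 to −0.13, and the median untreated difference from 0.02 to −0.23; the 4 calls held under it. Both pairs of arrays showed more signal in SUP-B15 for 9 of the 13, against 35.2% of all kept probe sets, and for each of the 4 tested kinase probe sets, with TYK2 the exception untreated under a common median. The median log2 difference of the 13 was 0.52, against −0.02 over all kept probe sets. Of these 13, 4 share 1 gene, IL6ST, and all of the 4 but 212195_at reached the median only on SUP-B15 arrays. The filter thus kept them through the group where they were high, and the count and median support nothing further. Without the filter 10 of 17 member probe sets were higher in SUP-B15 on both pairs, and 1, 204864_s_at of IL6ST, was lower.

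**Figure D3:**
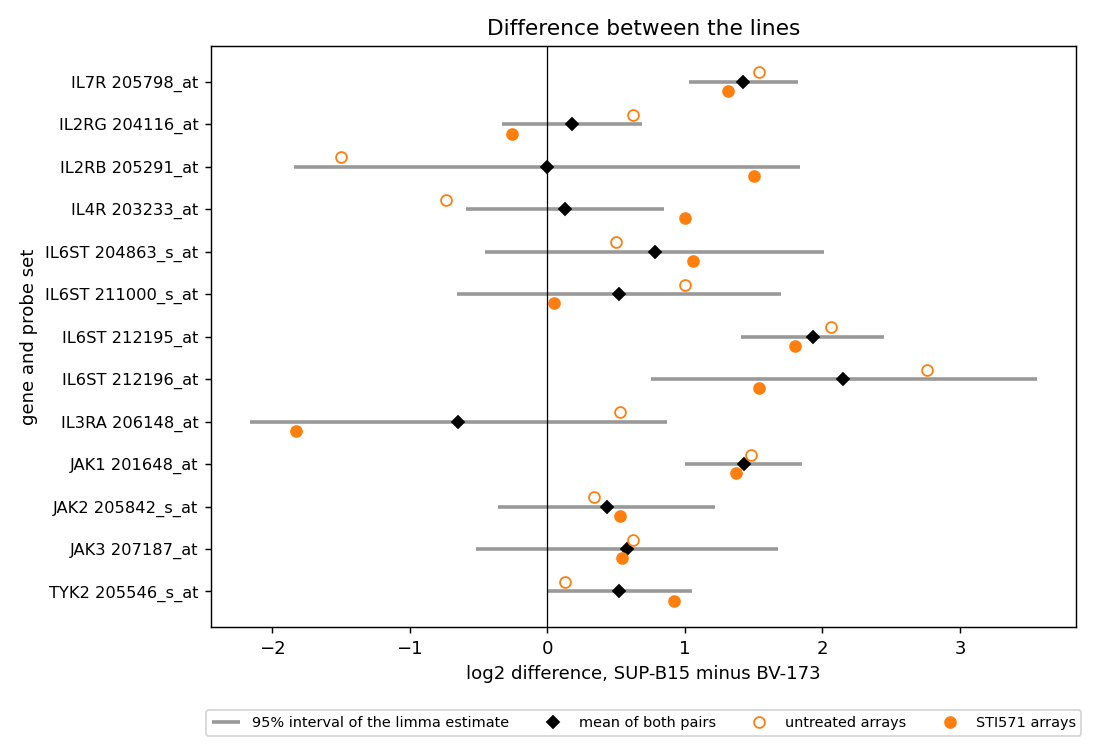
Log2 difference between SUP-B15 and BV-173 for the 13 tested probe sets, from the untreated arrays (open circles), the STI571 arrays (filled circles) and their mean (diamonds) with the 95% interval of the limma estimate (bars). The intervals of IL7R, JAK1 and 212195_at of IL6ST start at 1.0 or above, and that of 212196_at at 0.75, while the untreated and treated points of IL2RG, IL2RB, IL4R and IL3RA lie on opposite sides of 0.

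Other receptors that couple to STAT factors were counted from a fixed list by the brightest kept probe set of each gene. Of 30 measured genes 18 were tested; for STI571 1 passed downward and 0 upward (limma; at an unadjusted p under 0.05, 1 and 1), against 1.63% and 1.41% of all 7916 genes. The gene that fell was IL21R, the partner of the gamma chain for interleukin 21, with 661 without and 318.5 with drug in BV-173, and 851 and 393 in SUP-B15 (mean log2 change −1.03, limma adjusted p = 0.00574). Its treated signals were below both untreated signals, and IL2RG in the same receptor gave the values above. IL12RB1, a chain of the interleukin 12 receptor, had a larger mean change of 1.34 that did not pass (limma adjusted p = 0.616), on signals of 15.1 to 123. The median change of the 18 genes was −0.01, against 0.02 over all genes. A limma fit to the brightest probe sets alone gave 979 of 7916 genes an unadjusted p under 0.05 for STI571. Between the lines that fit gave 3009.

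Between the lines 3 of these 18 receptors passed with more signal in SUP-B15 and 2 with less, against 14.4% and 14.2% of all genes. The 3 higher ones reached the median only on the SUP-B15 arrays and so entered the test through the group where they were high; the count supports nothing further. The growth hormone receptor GHR gave 18.4 and 3.2 in BV-173 and 397 and 350.5 in SUP-B15. IL12RB2 gave 11.3 and 8.6 in BV-173 and 392 and 300.2 in SUP-B15. IL13RA1, which pairs with IL4R to bind interleukin 13 and is named after its values were seen, gave 42.6 and 16.3 in BV-173 and 152 and 191 in SUP-B15 (mean log2 difference 1.90, limma adjusted p = 0.0248). The genes with less signal in SUP-B15 were CSF2RB and IL15RA, the chain that binds interleukin 15, at 607 and 519.5 in BV-173 and 83.5 and 97.7 in SUP-B15. IL15RA reached the median only on the BV-173 arrays, so it too entered the test through the group where it was high.

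Downstream of the kinases stand the STAT factors. Of 5 measured STAT genes 4 were tested and 0 passed for STI571 or between the lines (limma; at an unadjusted p under 0.05, 0 for STI571 and 2 higher in SUP-B15). STAT5B gave 408 without and 430 with drug in BV-173, and 605 and 722 in SUP-B15. STAT5A gave 137 and 136 in BV-173, and 90.6 and 148 in SUP-B15. Of 18 measured inhibitors of the pathway 16 were tested, and 2 passed downward and 0 upward for STI571, against 1.63% and 1.41% of all genes (limma; at an unadjusted p under 0.05, 2 and 0). These were CISH, a feedback inhibitor of STAT5 signalling, with log2 changes of −2.63 and −0.42, and PTPN6, the phosphatase SHP-1, which gave 859 without and 347 with drug in BV-173, then 1414 and 893 in SUP-B15 (mean log2 change −0.95, limma adjusted p = 0.00467). Between the lines USP18, PTPN6 and PTPN2, a phosphatase that acts on JAK1 and JAK3, passed with more signal in SUP-B15 and CISH with less. These were 3 and 1 of 16, against 14.4% and 14.2% of all genes. CISH gave 918 without and 128 with drug in BV-173, and 158 and 112 in SUP-B15. Its log2 line difference was −2.37 untreated but −0.16 treated. USP18, at 70.9 and 11.0 in BV-173 and 644.7 and 790.5 in SUP-B15, reached the median only on the SUP-B15 arrays. It thus entered the test through the group where it was high, and its call adds no support. PTPN2, named after its values were seen, gave 644 and 839 in BV-173 and 1176 and 1517 in SUP-B15 (mean log2 difference 0.84, SE 0.23).

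Genes with a pattern over the 4 arrays most like that of a member were found by the smallest distance between mean-centred log2 values, among 7915 other genes. For JAK1, the tested kinase probe set with the widest range, the nearest were MZB1, a chaperone of B cells (distance 0.086), SAP30L, DNMBP, DHX40 and ZDHHC17 (0.116 to 0.124). MZB1 gave 1016.5 and 1352 in BV-173 and 2677 and 3589 in SUP-B15. For IL6ST 212196_at, the member with the widest range of all, the nearest were GPC4, a cell surface proteoglycan (distance 0.20), RBPMS, PJA1, ABCB9 and BNIP3L (0.228 to 0.321). GPC4 gave 5.5 and 27.2 in BV-173 and 188 and 123 in SUP-B15. With 4 arrays such likeness is a description.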

How the data were processed

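Total RNA of 4 samples, 1 array each, was labelled with biotin and hybridised by the Affymetrix standard, per the labels' protocols; the submitters' processing notes name GCOS 1.3. The deposited table holds 1 signal intensity for each probe set, not logged, which the authors had scaled array by array (the 2%-trimmed mean was 500.2 in every column). How probes were summarised, and to what target, is not given in the sources used here. Detection calls were not used here.

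Of 22277 probe sets 62 were controls; 19064 had 1 gene symbol, 1043 several and 2108 none. Of the first, 19052 matched RefSeq (GRCh38.p14) by Entrez ID. The pseudocount of 24.5 is the 25th percentile of all signals. Probe sets at or above the 50th percentile of an array on at least 1 array were kept. Tests used limma 3.58.1 in R 4.3.3 (intensity trend, Benjamini-Hochberg at 0.05, two-sided; prior degrees of freedom estimated as infinite). On simulated data (10 runs) the STI571 fit gave changed probe sets the right sign almost always. It called 40.5% of 2-fold and 77.6% of 4-fold changes. Of its calls 16.7% were false, above the 0.05 that the adjustment is set to. The line difference was not simulated. The line pairs treated with untreated arrays. The residual of the fit is the difference between the lines' responses to the drug, pooled over probe sets of like brightness, and may hold technical spread. For the line difference, the untreated and treated arrays stand in as repeats of a line. No group was repeated, so the p-values do not measure spread between cultures. Members, lists and tests were chosen with earlier results of these data known. Each list was described by its counts, naming up to 4 genes by mean change and 4 by line difference. Alternatives were other pseudocounts, filters, normalizations, probe set rules, variance models, the line term left out, and thresholds of 1.5-fold and 3-fold.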

Additional observations from a re-analysis of the deposited data

Results flagged for a closer look

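In 3 receptor genes the arrays of BV-173 and SUP-B15 moved in opposite directions with STI571, each by at least 1.5-fold. The difference between the responses was not tested, since each line had 1 array per condition. On the log2 scale the SUP-B15 response minus the BV-173 response was 3.0 for IL2RB, 1.74 for IL4R and −2.36 for IL3RA. IL4R was at or above the array median on all 4 arrays, IL2RB on 1 and IL3RA on 1.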

How the results depend on the processing

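The number of member probe sets that passed for STI571, 1 in the fit described, was 0 with a common median, with gene means, without the replicate block (the cell line as a term) and with no intensity trend, and 1 under every other alternative. Without the block the lines' difference counts as spread. The number that passed between the lines, 4, was 2 without the trend (those of IL6ST), 3 under the stricter filter and both gene-level rules, and 4 under the others. Members changed 2-fold, 2 in each line, numbered 0 in both lines with a pseudocount of 98 and with the 75th percentile filter; in BV-173 quantile normalization gave 1, and a pseudocount of 1 or no filter gave 3. At 1.5-fold BV-173 had 6 and SUP-B15 had 8 of them, and at 3-fold 1 and 0.

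The mean change of IL6ST 212196_at by STI571 (−0.06) became 0.19 with a pseudocount of 1 and 0.12 for the mean of the gene's probe sets, and the line difference of IL2RB became 0.13 with a pseudocount of 1; the cause was not tested, and none of these passed. Over all probe sets the 369 calls for STI571 became 235 with a common median, 148 of 6218 with shared probe sets left out, 242 and 116 of 7916 at gene level (brightest probe set and mean), and 0 without the trend or the block (1024 and 131 at an unadjusted p under 0.05). The 3477 calls between the lines became 2296 and 2059 at gene level, 1613 with shared probe sets left out, 968 without the trend and 2187 without the treatment term. Of 554 values of single members under an alternative, 513 kept their direction and side of the threshold or moved by less than the fit's spread, and of the 30 that moved further 27 did so with another pseudocount. Dim probe sets limit the sizes given for IL2RB, IL3RA and the dimmer ones of IL6ST, JAK2 and JAK3. No replicate could be left out, as each group held 1 array.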

Other observations

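Ligands of these receptors were dim. Of 28 listed cytokine genes 23 were measured and 4 reached an array median, IL5, IL6, IL15 and EPO; 0 of the 4 passed for STI571 or between the lines (limma; at an unadjusted p under 0.05, also 0). IL7, the ligand of IL7R, was below the array median on all 4 arrays, with 6.1 and 17.8 in BV-173 and 63.4 and 0.8 in SUP-B15. IL15 gave 56.1 and 125 in BV-173 and 50.3 and 81.2 in SUP-B15.

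Among 16 measured receptor tyrosine kinases and adaptors 14 were tested and 0 passed for STI571 (limma; at an unadjusted p under 0.05, 3 higher and 0 lower). Between the lines FYN and STAM passed with more signal in SUP-B15, and FLT3, SH2B2 and LYN with less, 2 and 3 of 14 against 14.4% and 14.2% of all genes. FYN, a SRC family kinase, gave 47.3 and 71.4 in BV-173 and 3280 and 4544 in SUP-B15 (mean log2 difference 5.55, SE 0.26). It reached the median only on the SUP-B15 arrays and so entered the test through the group where it was high. FLT3, a receptor kinase of early progenitors, gave 1588 without and 3716 with drug in BV-173, against 1255 and 892 in SUP-B15.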
